A study of Mus musculus with 32 samples.

Results

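Vasoconstrictor receptors were examined at the mRNA level in dissected mouse brain arteries. The 10 genes were taken as the rows of the count table whose Ensembl identifiers map to Ednra, Ednrb, Adra1a, Adra1b, Adra1d, Htr1b, Htr2a, Agtr1a, Avpr1a, and Tbxa2r, and each symbol matched 1 of the 55357 rows. Bulk RNA sequencing covered 32 libraries, 8 in each of 4 groups, and each library is labelled as a separate replicate. The younger groups were untreated Notch3-/- mice, which lack functional Notch3, and Notch3+/+ mice, both aged 3 months. The older groups were untreated TgNotch3R169C mice, which carry a large genomic construct with a mutant rat Notch3 gene in addition to their own mouse gene, and non-Tg mice, both aged 12 months. Each control group was described as age-matched littermates of its mutant. The lines had been backcrossed to C57BL/6, and sex is not among the labels used here.

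Vasoconstrictor receptors are G protein-coupled receptors in the membrane of arterial smooth muscle cells. When endothelin, noradrenaline, angiotensin II, vasopressin, thromboxane, or serotonin binds, most of them act through Gq proteins and phospholipase C, which releases calcium from internal stores and activates myosin light chain kinase. Coupling to G12 and G13 inhibits myosin phosphatase, which keeps myosin phosphorylated, whereas the 5-HT1B receptor acts through Gi proteins. Several of these genes are also used by other cells of the brain, such as astrocytes and neurons.

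All 8 smooth muscle markers examined, among them Acta2, Tagln, and Myh11, were detected in each group, and their summed level ranged from 1135 to 4361 CPM, the counts scaled to a common library size, over the 32 libraries. Markers of other cells were present too, with summed levels of 2003 to 3372 CPM for astrocytes, 893.6 to 1545 CPM for endothelium, and 141.4 to 1024 CPM for neurons. Markers of the choroid plexus were at 131.5 to 561.6 CPM in 25 libraries and at 8770 to 25503 CPM in the other 7, namely 1 Notch3-/-, 2 TgNotch3R169C, 4 non-Tg, and 0 Notch3+/+ libraries. Notch3 itself ranged from 13.7 to 18.5 CPM in Notch3-/- against 65.8 to 98.1 in Notch3+/+ mice, and from 108.0 to 218.8 CPM in TgNotch3R169C and 60.1 to 85.0 CPM in non-Tg mice, without overlap in either pair. Total counts ranged from 20289487 to 54481934 per library. In bulk tissue, fewer cells of a type and less RNA per cell cannot be told apart.

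Per length of exon, the receptors formed 3 tiers with the same members in the 4 groups. Adra1b (ENSMUSG00000050541), the alpha-1B adrenoceptor, stood first in each group, at 10.2 ± 1.69 CPM per kb in Notch3+/+ mice (mean ± SD, n = 8), and was above the next receptor in 6 or 7 of the 8 libraries of a group. The endothelin receptors Ednra (ENSMUSG00000031616) and Ednrb (ENSMUSG00000022122) followed at 8.94 ± 1.10 and 8.90 ± 1.49 CPM per kb. These means differed by less than their spread, and Ednra was above Ednrb in only 2 of the 8 Notch3+/+ libraries. In Notch3-/- mice Ednra was above Ednrb in 6 of 8 libraries. In both older groups Ednrb had the higher mean, and was above Ednra in 3 of 8 TgNotch3R169C and 4 of 8 non-Tg libraries. Ednra and Ednrb were each above Tbxa2r in at least 7 of 8 libraries of every group where they were neighbours. The second tier held Tbxa2r (ENSMUSG00000034881), the thromboxane receptor, at 4.86 ± 0.490 CPM per kb and Htr1b (ENSMUSG00000049511), which encodes the 5-HT1B receptor, at 4.31 ± 0.906 CPM per kb. Tbxa2r was above Htr1b in 6 of 8 Notch3+/+, 8 of 8 Notch3-/-, 7 of 8 TgNotch3R169C, and 7 of 8 non-Tg libraries, so this order was close.

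The third tier lay well below the second in each group. It held Adra1a (ENSMUSG00000045875) at 0.959 ± 0.204 CPM per kb, Adra1d (ENSMUSG00000027335) at 0.723 ± 0.481, Agtr1a (ENSMUSG00000049115) at 0.550 ± 0.175, Htr2a (ENSMUSG00000034997) at 0.398 ± 0.0607, and Avpr1a (ENSMUSG00000020123), the vasopressin V1a receptor, at 0.197 ± 0.0832 CPM per kb in Notch3+/+ mice. Htr1b was above each of these genes in all 8 libraries of each group. Their order varied between the groups, and neighbours within the third tier overlapped, with 1 exception, Adra1a and Agtr1a in Notch3-/- mice. Per-kb values rest on exon lengths of GENCODE vM21, an annotation of another genome build than the one named in the submitters' processing notes. Each length merges all exons of a gene, 8728 bases for Adra1a against 1919 for Tbxa2r, so the tiers and subtype shares depend on it. Before this division, Adra1a was at 8.37 ± 1.78 CPM and Tbxa2r at 9.32 ± 0.939 CPM in Notch3+/+ mice. All other levels below are in CPM, which serves to compare 1 gene between groups.

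**Figure D1:**
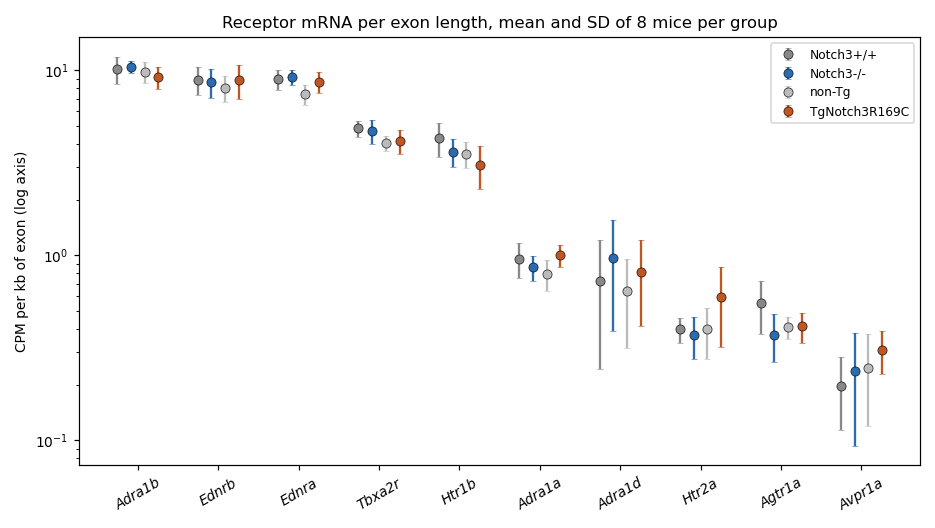
Mean CPM per kb of exon (log axis, SD bars, n = 8 mice per group) of the 10 receptors in 4 groups, ordered by their average over the groups. Adra1b, Ednrb, and Ednra lie between 7.42 and 10.5 CPM per kb in every group, whereas Avpr1a is lowest in each.

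Endothelin receptors were thus present in nearly equal amounts. Ednra, the receptor through which endothelin-1 contracts smooth muscle, made up 50.3 ± 6.17% of the endothelin receptor mRNA per exon length in Notch3+/+, 51.8 ± 5.76% in Notch3-/-, 49.7 ± 6.97% in TgNotch3R169C, and 48.2 ± 5.61% in non-Tg mice. Among the 3 alpha-1 adrenoceptors, which bind noradrenaline, Adra1b made up 85.7 ± 4.75%, 85.3 ± 3.91%, 83.3 ± 4.70%, and 87.1 ± 3.77% in the same groups. Adra1a contributed a mean of 7.05% to 9.15% and Adra1d of 5.72% to 7.66%.

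In Notch3-/- mice, none of the 10 receptors was differentially expressed, whereas 6 of 8 smooth muscle markers were lower in the same libraries. Fold changes are given as log2FC, mutant over control or non-Tg over Notch3+/+, from edgeR's quasi-likelihood test. A DEG had an adjusted p below 0.05 (Benjamini-Hochberg, over all genes tested). Of 17714 genes tested, 0.649% were DEGs, and 0 of 10 receptors were. At an unadjusted p below 0.05, 1 receptor was lower, where 7.69% of all genes passed. The median log2 fold change of the receptors was −0.04 (6 lower, 4 higher), and that of all genes was −0.0011. DESeq2 and limma voom also called 0 receptors. The smooth muscle markers had a median of −0.63, with Myh11, smooth muscle myosin heavy chain, lowest at −1.04. Of the 2 that were not DEGs, Smtn was at −0.34 and Des, which encodes desmin, at 0.28. The difference between the lists was not tested.

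Of the more abundant receptors, Ednra, Adra1b, Ednrb, and Tbxa2r had narrow intervals around no change. Ednra ranged from 42.3 to 61.4 CPM (median 48.4) in Notch3+/+ and from 43.7 to 56.9 CPM (median 50.8) in Notch3-/- mice, and both groups covered nearly the same range. Its log2FC was 0.04 (SE 0.0730, adjusted p = 0.973), with a 95% CI from a 0.924-fold to a 1.14-fold level. Adra1b ranged from 27.7 to 46.5 CPM (median 33.2) in Notch3+/+ and from 31.9 to 38.5 CPM (median 36.1) in Notch3-/- mice. Its interval reached from 0.909-fold to 1.17-fold, around a log2 fold change of 0.04. Ednrb, which has a dual role as a contractile receptor of smooth muscle and a dilator and clearance receptor of endothelium, was at 37.9 ± 6.34 and 36.8 ± 6.54 CPM, with an interval from 0.812-fold to 1.16-fold. Tbxa2r was at 9.32 ± 0.939 and 9.03 ± 1.37 CPM, with an interval from 0.848-fold to 1.11-fold.

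Agtr1a, which encodes the angiotensin II type 1a receptor, had the lowest log2 fold change of the 10 genes in Notch3-/- mice, and that change did not pass the test. Its level ranged from 0.895 to 2.48 CPM (median 1.48) in Notch3+/+ and from 0.603 to 1.39 CPM (median 1.12) in Notch3-/- mice. All 8 Notch3-/- libraries lay below the Notch3+/+ mean, although the ranges overlapped. The log2FC was −0.55 (SE 0.214, unadjusted p = 0.0196, adjusted p = 0.478). Without Notch3+/+ replicate 5, which had the highest level, it was −0.42. These values rest on 18 to 74 counts per library over the whole series, and reads of Agtr1a can be shared with its near-identical paralog Agtr1b and with an overlapping gene on the same strand, so its level is uncertain. In the older groups Agtr1a was at 1.15 ± 0.210 CPM in TgNotch3R169C and 1.14 ± 0.158 CPM in non-Tg mice.

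Htr1b averaged 17.1 ± 2.92 CPM in Notch3-/- against 20.4 ± 4.28 in Notch3+/+ mice (log2FC −0.25, SE 0.139, adjusted p = 0.763). Its interval reached from 0.687-fold to 1.03-fold. Htr1b overlaps an antisense gene, and whether the counting used strand is not given in the sources used here. Adra1a and Htr2a, the latter encoding the 5-HT2A receptor, had log2 fold changes of −0.16 and −0.11. Adra1d and Avpr1a were higher in the mean, by 0.42 (SE 0.385) and 0.23 (SE 0.321) on the log2 scale, and their intervals reached 2.36-fold and 1.88-fold. Adra1d ranged from 0.711 to 3.78 CPM (median 1.38) in Notch3-/- and from 0.781 to 3.56 CPM (median 1.14) in Notch3+/+ mice, and Avpr1a from 0.301 to 1.53 CPM (median 0.551) and from 0.272 to 0.963 CPM (median 0.518). The ranges of Adra1d overlapped almost fully, whereas for Avpr1a 1 Notch3-/- library lay above all Notch3+/+ libraries. Single mice moved both fold changes. For Adra1d, the log2 fold change was 0.80 without Notch3+/+ replicate 3 and 0.20 without Notch3-/- replicate 5. For Avpr1a it was −0.07 without Notch3-/- replicate 8, the only Notch3-/- library rich in choroid plexus markers.

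**Figure D2:**
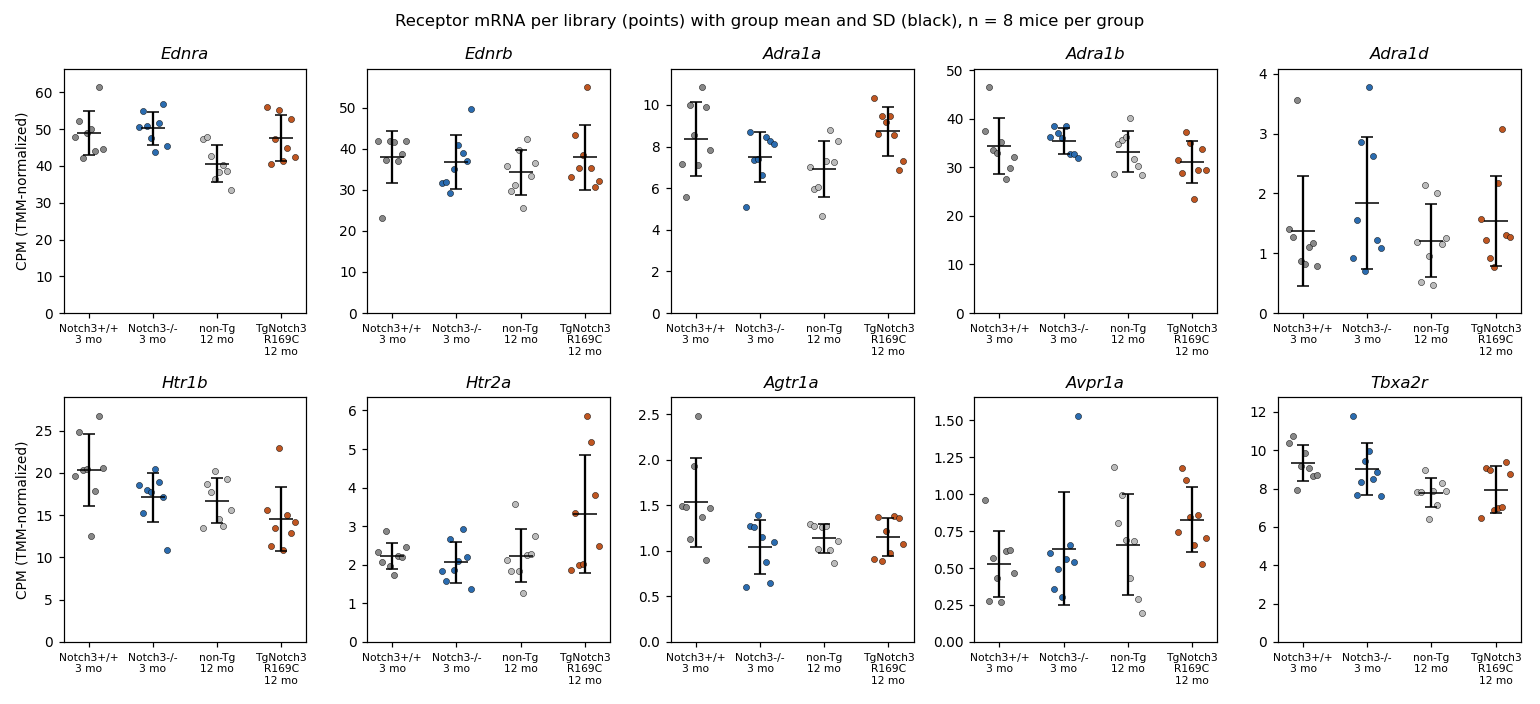
CPM of each receptor in each library (points), with group mean and SD in black, n = 8 mice per group. The groups overlap for every receptor, and single high libraries are seen for Htr1b in TgNotch3R169C, Avpr1a in Notch3-/-, and Adra1d in Notch3+/+ mice.

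In TgNotch3R169C mice, 0 of the 10 receptors were DEGs, where 0.113% of the 17731 genes tested were, and DESeq2 and limma voom also called 0. The median log2 fold change of the receptors was 0.18 (8 higher, 2 lower), against −0.0074 for all genes. At an unadjusted p below 0.05, 3 receptors were higher, namely Adra1a, Ednra, and Htr2a, where 7.27% of all genes passed in either direction. Smooth muscle markers had log2 fold changes between −0.29 and −0.13 (median −0.23), and 0 of 8 were DEGs, with 3 lower at an unadjusted p below 0.05.

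Ednra ranged from 40.7 to 56.0 CPM (median 46.2) in TgNotch3R169C and from 33.5 to 47.8 CPM (median 39.5) in non-Tg mice. Each of the 8 TgNotch3R169C libraries lay above the non-Tg mean of 40.64 CPM, though replicate 2, at 40.65 CPM, was practically level with it. Replicates 1, 4, and 7, at 56.0, 55.3, and 52.8 CPM, lay above the highest non-Tg library. The other 5 were within the non-Tg range. The log2FC was 0.23 (SE 0.0906, unadjusted p = 0.0228, adjusted p = 0.645), and it was 0.29 without the libraries rich in choroid plexus markers. Adra1a ranged from 6.86 to 10.3 CPM (median 8.90) in TgNotch3R169C and from 4.65 to 8.80 CPM (median 7.13) in non-Tg mice, with 7 of 8 TgNotch3R169C libraries above the non-Tg mean. Its log2FC was 0.33 (SE 0.121, unadjusted p = 0.0135, adjusted p = 0.611). With the astrocyte markers as a covariate, it was 0.18. These markers had log2 fold changes of 0.03 to 0.29 in TgNotch3R169C mice, 7 of 7 of them above 0, and 0 of 7 were DEGs. The covariate thus leaned with the group, and the part of astrocytes in the change of Adra1a was not tested.

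Htr2a had the largest log2 fold change of the 10 receptors in TgNotch3R169C mice, 0.56 (SE 0.262, unadjusted p = 0.0468, adjusted p = 0.679). It ranged from 1.85 to 5.85 CPM (median 2.92), against 1.27 to 3.57 CPM (median 2.20) in non-Tg mice. Replicates 5 and 6 stood highest, at 5.85 and 5.19 CPM, and 5 of 8 TgNotch3R169C libraries lay above the non-Tg mean. The 7 neuron markers had log2 fold changes of 0.11 to 0.77 in the same comparison, with 0 of 7 DEGs. Their summed level was 284.3 to 1024 CPM (median 504.8) in TgNotch3R169C and 162.1 to 622.8 CPM (median 366.9) in non-Tg mice, and replicate 5 was again highest. With the neuron markers as a covariate, the log2 fold change of Htr2a was 0.17, and without the libraries rich in choroid plexus markers, replicate 5 among them, it was 0.18. Because the neuron markers themselves leaned higher in TgNotch3R169C mice, this covariate cannot be separated from the group. The part of neural tissue in the result was not tested.

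The remaining receptors gave no unadjusted p below 0.05 in TgNotch3R169C mice. Ednrb was at 37.9 ± 7.96 CPM against 34.2 ± 5.42 CPM in non-Tg mice, with an interval from 0.926-fold to 1.31-fold. Adra1b was at 31.1 ± 4.33 against 33.2 ± 4.14 CPM, with an interval from 0.816-fold to 1.08-fold. Adra1d was at 1.54 ± 0.750 against 1.21 ± 0.611 CPM and Avpr1a at 0.826 ± 0.219 against 0.658 ± 0.340 CPM, with intervals from 0.775-fold to 2.06-fold and from 0.810-fold to 1.88-fold. Tbxa2r, at 7.95 ± 1.20 against 7.77 ± 0.757 CPM, and Agtr1a had log2 fold changes of 0.03 and 0.01, and the intervals reached from 0.888-fold to 1.18-fold and from 0.831-fold to 1.23-fold. Htr1b was at 14.6 ± 3.78 against 16.7 ± 2.66 CPM (log2FC −0.20, SE 0.141, adjusted p = 0.765). It was −0.32 without replicate 4, whose level of 23.0 CPM stood apart from the other 7 TgNotch3R169C libraries.

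**Figure D3:**
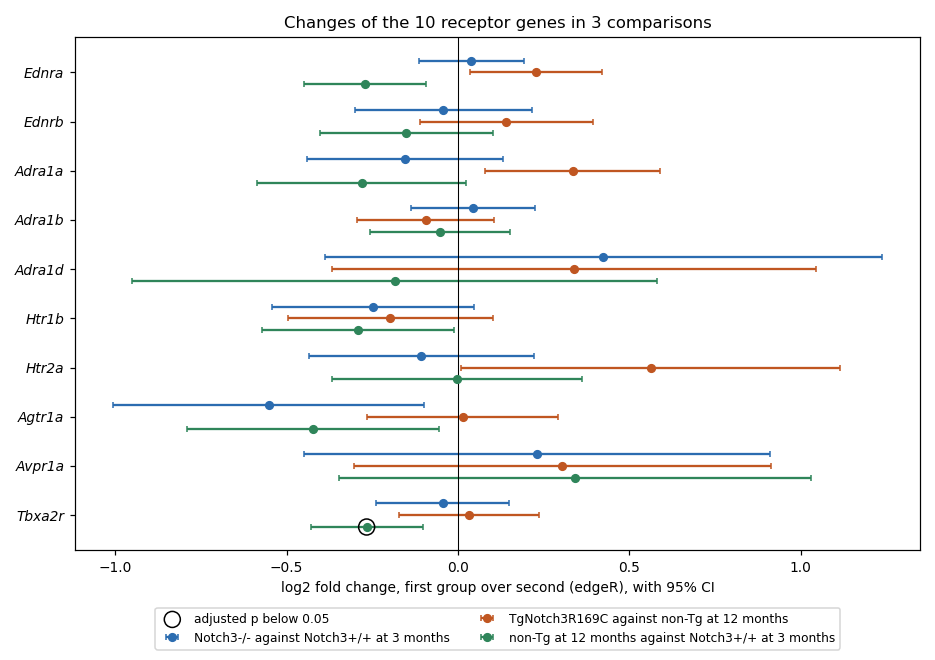
Log2 fold changes of the 10 receptors with 95% CIs in 3 comparisons (colours), from edgeR fits of 8 against 8 libraries; a black ring marks an adjusted p below 0.05. The ring marks Tbxa2r between the control groups only, and the intervals of Adra1d and Avpr1a are wide.

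The control groups were compared with each other to see how the receptors stood without a mutation. Non-Tg mice aged 12 months and Notch3+/+ mice aged 3 months differ in age and in mouse line, and these cannot be told apart. This comparison shares the non-Tg libraries with the TgNotch3R169C comparison and the Notch3+/+ libraries with the Notch3-/- comparison. Of 17643 genes tested, 7.92% were DEGs. Of the 10 receptors, 9 had a negative log2 fold change (median −0.23, against 0.0026 over all genes) and 1, Tbxa2r, was a DEG with a lower level in the older mice, where 4.05% of all genes were lower DEGs. At an unadjusted p below 0.05, 4 receptors were lower, where 24.2% of all genes passed in either direction.

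Tbxa2r, which encodes the thromboxane A2 receptor, ranged from 6.39 to 8.95 CPM (median 7.85) in non-Tg and from 7.94 to 10.7 CPM (median 9.13) in Notch3+/+ mice. All 8 non-Tg libraries lay below the Notch3+/+ mean, and the ranges overlapped. The log2FC was −0.27 (SE 0.0772, adjusted p = 0.0436), a 0.831-fold level. The call was near the threshold. With 1 library left out at a time, it held in 3 of 16 fits, those without Notch3+/+ replicate 3, non-Tg replicate 3, or non-Tg replicate 7, and was lost without any of the other 13 (adjusted p of at most 0.0969). Without the 4 non-Tg libraries rich in choroid plexus markers, the log2 fold change was −0.18 and the adjusted p was 0.287. With the smooth muscle markers as a covariate, it was −0.18 with an adjusted p of 0.651. All 8 of those markers were themselves lower DEGs in the older mice, so this covariate cannot be separated from the group.

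Ednra was just outside the threshold in this comparison. It was at 40.6 ± 5.06 CPM in non-Tg and 48.9 ± 6.04 CPM in Notch3+/+ mice (log2FC −0.27, SE 0.0846, adjusted p = 0.0569), with all 8 non-Tg libraries below the Notch3+/+ mean. DESeq2 gave an adjusted p of 0.0295 for Ednra and 0.0131 for Tbxa2r. Without the libraries rich in choroid plexus markers, Ednra was again at −0.27 (adjusted p = 0.186). The log2 fold changes of Agtr1a and Htr1b were −0.42 (SE 0.174, adjusted p = 0.143) and −0.29 (SE 0.133, adjusted p = 0.188). Adra1a was at −0.28, Adra1d at −0.18, Ednrb at −0.15, Adra1b at −0.05, and Htr2a at −0.0027. Avpr1a, at 0.34 (SE 0.326), was the only receptor with a higher mean in non-Tg mice. In the same comparison 8 of 8 smooth muscle markers were lower DEGs (median −0.81) and 6 of 7 choroid plexus markers were higher DEGs (median 3.97).

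The sequence before the start of Tbxa2r is shown because this was the only receptor DEG, and because Notch receptors act on genes through the DNA-binding protein RBPJ, whose core motif can be written as GTGGGAA. RefSeq (GRCm38.p6) places 2 starts of Tbxa2r on the plus strand, and the 250 bases before each are given with the motif, or its reverse complement TTCCCAC, in capitals. The first window is chr10:81328018-81328267 and the second chr10:81328453-81328702.
Tbxa2r, first start: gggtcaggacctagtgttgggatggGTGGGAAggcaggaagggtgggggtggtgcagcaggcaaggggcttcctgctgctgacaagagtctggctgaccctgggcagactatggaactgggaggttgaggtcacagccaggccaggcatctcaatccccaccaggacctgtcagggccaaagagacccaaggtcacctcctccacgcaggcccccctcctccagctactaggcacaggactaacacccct
Tbxa2r, second start: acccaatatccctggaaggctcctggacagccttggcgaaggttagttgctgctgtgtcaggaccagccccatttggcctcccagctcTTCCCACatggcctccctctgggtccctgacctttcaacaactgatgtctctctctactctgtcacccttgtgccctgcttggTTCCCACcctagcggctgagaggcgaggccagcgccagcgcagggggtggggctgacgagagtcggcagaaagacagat
The motif occurred 1 time in the first window and 2 times in the second. Of the 32851 promoter windows of this length, 5.42% held it on either strand. Windows were found for 7 of the 10 receptors, 9 windows in all, and Tbxa2r was the only receptor with the full GTGGGAA motif. The shorter form TGGGAA was in 21.6% of all windows and in 3 of the 9 receptor windows, those of Htr1b and Tbxa2r. The log2 fold changes of Tbxa2r were −0.04 in Notch3-/- and 0.03 in TgNotch3R169C mice, neither past the test. Neither control group carries a Notch3 mutation, and a part of Notch in the difference between them was not tested. The CArG box, the motif of serum response factor at contractile genes, was in 1.47% of all windows and in 0 of the 9 receptor windows.

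The 2 mutants were compared through the interaction term of a fit of all 32 libraries. None of the 10 receptors passed (0 DEGs, where 0.35% of 18555 genes were), and 3 had an unadjusted p below 0.05, where 8.62% of all genes did. The difference, TgNotch3R169C change minus Notch3-/- change, was 0.49 for Adra1a (95% CI 0.12 to 0.87, adjusted p = 0.403), 0.57 for Agtr1a (0.05 to 1.09, adjusted p = 0.534), and 0.68 for Htr2a (0.05 to 1.31, adjusted p = 0.542). For Ednra it was 0.19 (−0.05 to 0.43). This term also holds the difference in age and line between the pairs.

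A shift between the endothelin receptors was examined through the log2 ratio of Ednra to Ednrb counts in each library, where the library size cancels. The ratio was 0.38 ± 0.36 in Notch3+/+, 0.46 ± 0.33 in Notch3-/-, 0.34 ± 0.41 in TgNotch3R169C, and 0.25 ± 0.33 in non-Tg mice (SD, n = 8). The lowest value was −0.41 in TgNotch3R169C replicate 5, which was rich in choroid plexus markers, and the highest was 1.17 in Notch3+/+ replicate 2. Exact two-sided permutation tests over all 12870 divisions of 8 against 8 libraries gave p = 0.646 for the difference of 0.08 in Notch3-/- mice, p = 0.635 for 0.09 in TgNotch3R169C mice, and p = 0.488 for −0.13 between the control groups. Adjusted over the 3 comparisons, each p was 0.646.

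Variation between mice of 1 group was used to see which genes each receptor moved with. Group means were removed, and Pearson's r of log2 CPM was taken over the 32 libraries against 15544 other genes. These are descriptions, and the points share the mix of cells in each library. Avpr1a was below a mean of 1 CPM and was not included. Adra1d was most like Grin2a (r = 0.94), Ano3 (0.93), Icam5 (0.91), Adgrb2 (0.90), and Grin2b (0.90), among them subunits of neuronal NMDA receptors, and its r with the mean of the neuron markers was 0.78. Htr2a was most like Tanc2 (r = 0.84), Tmem169 (0.82), Fam169a (0.81), Kcnip2 (0.81), and Cnih2 (0.81), with r = 0.71 for the neuron markers. The r between Htr2a and Adra1d was 0.66, the highest of any pair of receptors. With the smooth muscle markers, r was −0.26 for both.

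Ednrb and Adra1a varied together with astrocyte genes. The genes most like Ednrb were Arhgef26 (r = 0.84), Plcd4 (0.81), Acsl6 (0.78), Tdrkh (0.77), and Kcnj10 (0.77), the last encoding an astrocyte potassium channel. The r of Ednrb was 0.62 with the astrocyte, 0.44 with the neuron, and 0.34 with the choroid plexus markers. It was −0.60 with the fibroblast, −0.53 with the pericyte, and −0.42 with the macrophage and microglia markers. Adra1a was most like Slc1a3 (r = 0.76), which encodes a glutamate transporter of astrocytes and is itself in the astrocyte list, followed by Slc25a42 (0.72), Cd209b (0.71), Edn3 (0.69), and Disp3 (0.69). Adra1a had r = 0.64 with the astrocyte markers. Adra1b showed the opposite sign, with r = −0.58 for the astrocyte markers and −0.63 for Ednrb.

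Tbxa2r was the receptor with the highest r for smooth muscle markers, 0.39, and its r was higher with fibroblast (0.62), endothelium (0.49), pericyte (0.46), and macrophage and microglia (0.45) markers. Its most similar genes were Rcn3 (r = 0.75), Pdgfrl (0.74), Axl (0.73), Spi1 (0.70), and Cd300ld (0.69). Ednra was most like Car13 (r = 0.77), Tspan11 (0.76), Crispld1 (0.74), Ppp1r3c (0.74), and Adamtsl3 (0.73). For Adra1b these were Htra3 (r = 0.77), Tspan8 (0.74), Rbp4 (0.73), Lypd2 (0.72), and Megf11 (0.71). The marker list with the highest r was fibroblast for both, at 0.40 for Ednra and 0.44 for Adra1b. With the smooth muscle markers, r was 0.14 for Ednra and 0.035 for Adra1b. Htr1b, with Foxj2 (r = 0.73) first, followed by Ankrd37 (0.72), Rgs19 (0.68), Tnfrsf11b (0.67), and Pqlc2 (0.67), and Agtr1a, with Rxrg (0.68), 1700017B05Rik (0.66), Tmc4 (0.64), Gnas (0.62), and Zfp787 (0.61), had no r above 0.15 with any marker list, and the r of Htr1b with the choroid plexus markers was −0.43.

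**Figure D4:**
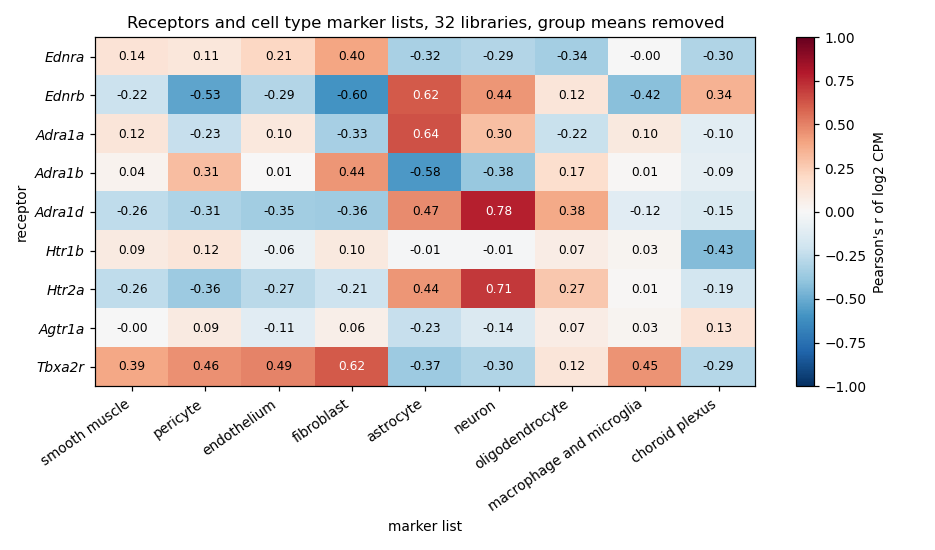
Pearson's r over 32 libraries, group means removed, between log2 CPM of 9 receptors (rows) and the mean log2 CPM of 9 cell type marker lists (columns), on a colour scale from −1 to 1. The highest values are those of Adra1d and Htr2a with neuron markers (0.78 and 0.71), followed by Adra1a with astrocyte markers (0.64). Tbxa2r with fibroblast markers and Ednrb with astrocyte markers come next, each at 0.62.

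Other receptors for the same ligands included 1 DEG in Notch3-/- mice, Agtr2, which encodes the angiotensin II type 2 receptor. Of the 18 genes of this list, 15 were tested and 1 was a lower DEG, where 0.649% of all genes were DEGs in either direction. Agtr2 ranged from 0.349 to 1.49 CPM (median 0.933) in Notch3-/- and from 1.38 to 2.67 CPM (median 2.12) in Notch3+/+ mice, and the groups overlapped only at their edges. Its log2FC was −1.22 (SE 0.243, adjusted p = 0.0257). The call was lost without any 1 of Notch3-/- replicates 4 and 7 and Notch3+/+ replicates 1, 4, 6, and 7, with an adjusted p of at most 0.0712. The log2 fold change with the smooth muscle markers as a covariate was −1.16 (adjusted p = 0.708). Of those markers, 6 of 8 were themselves lower DEGs in Notch3-/- mice, so this covariate cannot be separated from the group. In TgNotch3R169C mice Agtr2 was at 0.805 ± 0.194 CPM against 1.28 ± 0.364 CPM, a log2 fold change of −0.66 that was not past the test (SE 0.191, adjusted p = 0.458). Agtr1b, the paralog of Agtr1a, averaged 13.4 ± 2.30 CPM in Notch3+/+ against 12.5 ± 2.72 in Notch3-/- mice, above Agtr1a also per kb (6.25 ± 1.07 against 0.550 ± 0.175 CPM per kb in Notch3+/+ mice).

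In TgNotch3R169C mice, 0 of 14 tested genes of this list were DEGs. Htr1d, which encodes the 5-HT1D receptor, came closest, with 1.18 to 2.86 CPM (median 1.73) against 0.685 to 1.16 CPM (median 0.902) in non-Tg mice, without overlap. Its log2FC was 1.03 (SE 0.199, adjusted p = 0.0647), and DESeq2 gave an adjusted p of 0.00111. Htr1d was a DEG in only 1 of the 16 edgeR fits that left out 1 library. These levels rest on 18 to 113 counts per library. The highest was in TgNotch3R169C replicate 5, which also had the highest summed neuron markers of its group and was rich in choroid plexus markers. Adra2c, an alpha-2 adrenoceptor, gave a log2FC of 0.57 (SE 0.151, adjusted p = 0.329). Between the control groups, the lower DEGs in the older mice included Agtr1b (−0.39) and Agtr2 (−0.75), where 4.05% of all genes were lower DEGs. The 1 higher DEG was Htr2c (4.16), an abundant receptor of the choroid plexus, and without the libraries rich in choroid plexus markers its log2 fold change was 0.81 (adjusted p = 0.276). Agtr1b and Agtr2 were at −0.38 and −0.69 without those libraries, with adjusted p of 0.120 and 0.141.

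Ligand genes gave 0 DEGs of 12 tested in Notch3-/- mice and 0 of 13 in TgNotch3R169C mice. In the latter, 6 of 13 were higher at an unadjusted p below 0.05, where 7.27% of all genes passed in either direction. Edn1, which encodes endothelin-1, was at 43.4 ± 4.89 CPM in TgNotch3R169C and 35.4 ± 5.30 CPM in non-Tg mice (log2FC 0.29, SE 0.0941, adjusted p = 0.531). Ece1 and Ece2, which encode endothelin-converting enzymes, had log2 fold changes of 0.19 (SE 0.0736, adjusted p = 0.637) and 0.38 (SE 0.142, adjusted p = 0.626). Tph1 had one of 2.10 (SE 0.713, adjusted p = 0.600), and without TgNotch3R169C replicate 7 it was 0.64. Between the control groups, Edn1 was the 1 DEG of 12 ligand genes, a share near the 7.92% of all genes. Its log2 fold change was −0.31 (SE 0.0807, adjusted p = 0.0290), and −0.27 (adjusted p = 0.163) without the libraries rich in choroid plexus markers.

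Of the genes that couple the receptors to contraction, 1 of 24 was a DEG in Notch3-/- mice, where 0.649% of all genes were. Mylk, which encodes myosin light chain kinase, fell in Notch3-/- mice from 412.2 ± 68.9 to 279.4 ± 32.3 CPM (log2FC −0.56, SE 0.0950, adjusted p = 0.00705), and it was a DEG in each of the 16 fits that left out 1 library. Ppp1r12a, a subunit of myosin phosphatase, was just outside the threshold at −0.33 (SE 0.0743, adjusted p = 0.0526). The median of the list was −0.03. With the smooth muscle markers as a covariate, Mylk was at −0.11 (adjusted p = 0.775). In TgNotch3R169C mice 0 of 24 were DEGs (median −0.02), and Mylk was at −0.20 (SE 0.0815, unadjusted p = 0.0277, adjusted p = 0.671). Between the control groups 5 of 24 were lower DEGs, where 4.05% of all genes were, namely Mylk (−0.67), Ppp1r12a (−0.46), Ppp1r14a (−0.71), an inhibitor of myosin phosphatase, Rock1 (−0.39), a kinase that inhibits myosin phosphatase, and Gnaq (−0.15), the Gq subunit. Gnaq was a DEG in only 6 of the 16 fits that left out 1 library. Without the libraries rich in choroid plexus markers, Mylk (adjusted p = 0.0245) and Ppp1r12a (adjusted p = 0.0344) were still DEGs, and Ppp1r14a (0.0560), Rock1 (0.0789), and Gnaq (0.183) were not. With the smooth muscle markers as a covariate, 0 of these 5 were DEGs, and the log2 fold change of Mylk was −0.05. These markers themselves differed between the groups in both comparisons, so the covariate partly stands for the group. Whether smooth muscle content accounts for the lower Mylk was not tested. Of the 13 genes of receptor desensitization, 0 were DEGs in either mutant. Between the control groups 1 was a lower DEG, where 4.05% of all genes were. This was Rgs4, an inhibitor of Gq and Gi signalling, at −0.55 (SE 0.124, adjusted p = 0.0134), and at −0.39 (adjusted p = 0.170) without the libraries rich in choroid plexus markers. In Notch3-/- mice Rgs4 was at −0.39 (SE 0.131, adjusted p = 0.337) and Grk6, a receptor kinase, at 0.07 (adjusted p = 0.434), and in TgNotch3R169C mice Arrb1, an arrestin, was at 0.15 (adjusted p = 0.635).

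**Figure D5:**
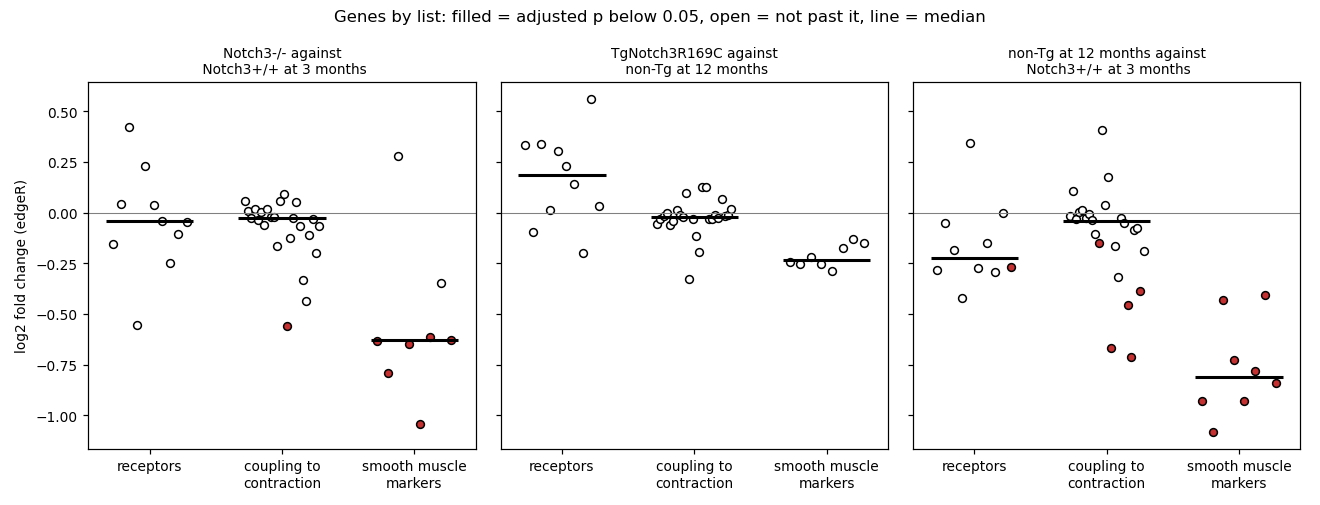
Log2 fold change of each gene (points) in the receptors, the genes coupling them to contraction, and the smooth muscle markers, in 3 comparisons. Filled red points passed an adjusted p below 0.05, open points did not, and bars are medians, which for the receptors are −0.04, 0.18, and −0.23 from left to right and for the smooth muscle markers −0.63, −0.23, and −0.81.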

How the data were processed

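The deposited values are read counts for each Ensembl gene, not normalized by the authors, and the submitters' processing notes name mm39, STAR 2.5.3a, Bowtie2 2.2.8, cutadapt 1.10, and HTSeq 0.6.1p1 without their roles. Poly(A)-selected, stranded libraries were made from total RNA. Totals were 20289487 to 54481934 counts. In edgeR 4.0.16 (R 4.3.3), low genes were removed by filterByExpr, and libraries were scaled by TMM and compared in fits of 8 against 8 libraries with the quasi-likelihood test, with Benjamini-Hochberg adjustment over all genes tested and a threshold of 0.05. The code was tested on simulated data. Intervals (95%) are from these fits, and p-values measure the spread between libraries labelled as separate replicates. CPM used TMM sizes over all 32 libraries.

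The study's own test was DESeq2's Wald test, run here (1.42.0) as an alternative, as were limma voom (3.58.1), RLE normalization, other filters, a fit of all 4 groups, a replicate block, marker lists or Xist as a covariate, and leaving out each library. Leaving out 7 libraries with choroid plexus markers above 1000 CPM was added after seeing the data. The receptors and lists were chosen with earlier results of these data known. Named genes are the 10 receptors, DEGs of each pathway list, or else up to 4 genes of a list with the smallest unadjusted p below 0.05, and the 5 genes most like each receptor (mean of at least 1 CPM, 0.5 added before log2). For the ratio, 0.5 was added to counts. Ratio tests used scipy 1.17.1. The result of 1 gene of the list of other receptors is not reported here.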

Additional observations from a re-analysis of the deposited data

Results flagged for a closer look

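In 4 of the 44 groups of 8 values examined, a single library stood apart from the other 7, where chance gives about 1 in 20, or 2.2. Ednrb was at 23.2 CPM in Notch3+/+ replicate 2, against 37.0 CPM in the next lowest library. This library had the lowest summed astrocyte markers of its group (2003 CPM) and the highest summed fibroblast markers (4048 CPM), and the part of these in the result was not tested. Adra1d was at 3.56 CPM in Notch3+/+ replicate 3, against 1.40 CPM in the next highest library, and the summed neuron markers were highest in the same library (889.5 CPM). Avpr1a was at 1.53 CPM in Notch3-/- replicate 8, against 0.656 CPM in the next, and this was the 1 Notch3-/- library rich in choroid plexus markers (24919 CPM). Htr1b was at 23.0 CPM in TgNotch3R169C replicate 4, against 15.7 CPM in the next highest library.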

How the results depend on the processing

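Of 907 fold changes of the receptors under the alternatives, 38 had the opposite sign to the value reported, none of them past the threshold. No receptor was a DEG in either mutant, or in the difference between the mutants, under any alternative run. Between the control groups, where 1 receptor was a DEG, the count was 2 with DESeq2 (Ednra and Tbxa2r), 1 with all 4 groups in 1 fit (Ednra, adjusted p = 0.0422, and not Tbxa2r, 0.0717), and 0 without a filter, with a smooth muscle, neuron, astrocyte, or choroid plexus marker covariate, and without the libraries rich in choroid plexus, an alternative chosen after seeing the data. It was 0 to 2 when 1 library was left out. For Tbxa2r the adjusted p over the alternatives that kept all libraries ran from 0.0131 to 0.651.

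With the smooth muscle covariate, the log2 fold changes in Notch3-/- mice were −0.058 for Adra1b, −0.21 for Adra1d, −0.030 for Avpr1a, and 0.14 for Tbxa2r, in TgNotch3R169C mice −0.010 for Ednrb, and between the control groups 0.12 for Adra1a and 0.025 for Ppp1r14a. In TgNotch3R169C mice the astrocyte covariate gave −0.052 for Ednrb, 0.0090 for Adra1b, and −0.15 for Adra1d, and the neuron covariate −0.0036 for Adra1d. Without the libraries rich in choroid plexus, Avpr1a was at −0.067 in Notch3-/- mice, Adra1b at 0.085 and Tbxa2r at −0.047 in TgNotch3R169C mice, and Adra1d at 0.067 and Htr2a at 0.26 between the control groups. There the choroid plexus covariate gave 0.046 for Adra1d and 0.29 for Htr2a, and Htr2a was at 0.00043 in the fit of all 4 groups and 0.0018 with at least 10 counts in every library, a filter that left Avpr1a untested. The cause of these turns was not tested.

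When 1 library was left out, signs also turned in Notch3-/- mice for Ednrb (−0.11 to 0.0036) and Avpr1a (−0.067 to 0.42), in TgNotch3R169C mice for Agtr1a (−0.031 to 0.057) and Tbxa2r (−0.0066 to 0.070), and between the control groups for Adra1b (−0.10 to 0.020), Adra1d (−0.36 to 0.19, the latter without Notch3+/+ replicate 3), and Htr2a (−0.14 to 0.080).

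Replicate numbers gave no clear sign of pairing the samples, although this check cannot exclude a pairing. Same-numbered libraries correlated at −0.25 to 0.42, and a library was most like its own number in 3, 1, and 2 of 8 cases in the 3 comparisons. With the replicate block, 0 receptors were DEGs in each comparison, with an adjusted p of 0.112 for Tbxa2r between the control groups, and Agtr2 was not a DEG in Notch3-/- mice (0.0854).

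Avpr1a had 4 to 50 counts per library, Adra1d 13 to 141, and Agtr1a 18 to 74, the fewest of the 10 receptors.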
